A study of Mus musculus with 18 samples.

Results

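H3K4me3 regions of iMK only are stretches of the mouse genome where this promoter mark was called in both libraries of immature megakaryocytes (iMK) and in neither library of erythroblasts (ERY). Peaks of the 4 H3K4me3 libraries that shared at least 1 bp were merged, which gave 14789 regions, and the 1150 regions overlapped by both iMK lists and by neither ERY list were kept, 7.78% of all. The regions were thus chosen by their H3K4me3 calls, so their H3K4me3 values are given below as a description without a test, and the comparisons between cell types rest on a second mark, H3K27ac, mapped in libraries of their own. Both cell types came from the bone marrow of adult C57BL6 mice, male by the study's methods, with no mutation or treatment named. ERY are late red cell precursors, sorted as lineage-negative cells carrying Ter119 and CD44 with low forward scatter. iMK are precursors of the cells that shed platelets, sorted for CD41 and CD61 and against Ter119, Sca1, cKit and lineage proteins that included CD11b and Ly6g. There were 2 libraries for every pairing of mark and cell type. Whether these stem from separate animals is not given in the labels. By the study's methods replicates were biological, either other groups of mice or other portions of cells from the same mice. The p-values thus measure the spread between these libraries or, where replicates are equal, a spread pooled over other regions.

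H3K4me3 is a trimethylation of lysine 4 on histone H3. It is laid down around the start sites of active and poised genes by COMPASS-family methyltransferases, which are recruited in part by unmethylated CpG-rich DNA. H3K27ac, an acetylation of lysine 27 on the same histone, is written by the coactivators p300 and CBP and marks active promoters and enhancers, so that a promoter with H3K4me3 but no H3K27ac is often described as poised or weakly active. Megakaryocytes and red cells share a progenitor, and during their separation the erythroid branch shuts most genes of other blood lineages while megakaryocytes keep a wider repertoire of signaling, adhesion and cytoskeletal genes.

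The peak lists differed in size. The H3K4me3 lists held 8841 and 6275 peaks in ERY replicates 1 and 2, and 7578 and 13222 in iMK replicates 1 and 2, and iMK replicate 2 covered 33.8 Mb against 11.3 Mb in iMK replicate 1. A further 4370 merged regions were called in iMK replicate 2 alone. Without iMK replicate 1 the rule kept 5522 regions, without iMK replicate 2 it kept 1577, and without ERY replicates 1 and 2 in turn it kept 2395 and 1160. The H3K27ac lists held 21768 to 25750 peaks. They covered 77 and 64.9 Mb in ERY replicates 1 and 2 and 42.9 and 53.2 Mb in iMK replicates 1 and 2. The main comparisons of H3K27ac coverage below are not adjusted for this difference. The lists hold no read depth, and a region without a peak is one where none passed the authors' threshold. The defining genes of the labelled cell types did not all carry the marks. Among megakaryocyte markers, the promoter of Itgb3 (CD61) had both marks in both iMK libraries and in neither ERY library. Itga2b (CD41) had H3K4me3 in iMK replicate 2 alone, with H3K27ac in both ERY libraries and in no iMK library, Pf4 had neither mark in any library, and the promoters of Gp1ba and Gp9 had H3K27ac in both ERY libraries alone. All 40 red cell genes listed had an H3K4me3 promoter call in ERY replicate 1, against 12 and 16 in the iMK libraries. Over all 21911 protein-coding genes, 8449 had such a call in ERY replicate 1 and 7775 and 11569 in the iMK libraries.

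The promoters under these regions ranged from CpG-poor to CpG-rich, shown here by the 200 bases before the start site of 6 promoters (RefSeq start sites and sequence, build GRCm38.p6, read 5′ to 3′ along the gene, outside every annotated exon). The first 4 belong to leukocyte signaling and surface genes and hold few CG dinucleotides. Capitals mark the letters GAGGAAGT on either strand, a stretch with the GGAA core that ETS factors such as SPI1 and FLI1 bind. Inpp5d (chr1:87620112-87620311, + strand) encodes the lipid phosphatase SHIP1 and Vav1 (chr17:57278900-57279099, + strand) a guanine nucleotide exchange factor of blood cells. Rassf5 (chr1:131200186-131200385, - strand) encodes an effector of RAS and RAP1, and Ly6c2 (chr15:75111972-75112171, - strand) a surface antigen of monocytes. The first match lay 20 bases before the start in Inpp5d, 11 in Vav1, 121 in Rassf5 and 108 in Ly6c2, and the 4 sequences held 5, 6, 3 and 0 CG dinucleotides.
Inpp5d: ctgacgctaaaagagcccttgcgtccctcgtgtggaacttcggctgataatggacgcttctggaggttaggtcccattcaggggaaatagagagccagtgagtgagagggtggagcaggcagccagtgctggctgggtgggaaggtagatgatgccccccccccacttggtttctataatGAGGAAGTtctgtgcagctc
Vav1: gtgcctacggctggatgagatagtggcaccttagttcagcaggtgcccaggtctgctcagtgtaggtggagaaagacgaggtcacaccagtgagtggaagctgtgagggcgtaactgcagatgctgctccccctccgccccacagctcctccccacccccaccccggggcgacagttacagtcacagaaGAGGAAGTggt
Rassf5: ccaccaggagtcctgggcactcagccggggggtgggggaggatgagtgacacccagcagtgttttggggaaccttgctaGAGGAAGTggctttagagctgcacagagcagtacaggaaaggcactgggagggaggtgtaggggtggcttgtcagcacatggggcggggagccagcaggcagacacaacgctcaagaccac
Ly6c2: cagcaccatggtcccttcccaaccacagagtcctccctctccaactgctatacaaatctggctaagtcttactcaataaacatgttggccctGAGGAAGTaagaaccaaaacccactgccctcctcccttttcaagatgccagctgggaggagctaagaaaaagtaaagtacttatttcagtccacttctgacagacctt

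The other 2 sequences show CpG-rich promoters whose iMK-only region had no H3K27ac peak in any library, and here capitals mark each CG. Epha7 (chr4:28812931-28813130, + strand) encodes an ephrin receptor and Vgll4 (chr6:114969204-114969403, - strand) a cofactor of TEAD factors. They held 19 and 23 CG dinucleotides. The printed promoters are examples and do not show how common either kind was. In the H3K27ac test described below, 67.2% of iMK-only regions with a CpG-rich promoter window were higher in iMK, against 64.7% of CpG-poor ones.
Epha7: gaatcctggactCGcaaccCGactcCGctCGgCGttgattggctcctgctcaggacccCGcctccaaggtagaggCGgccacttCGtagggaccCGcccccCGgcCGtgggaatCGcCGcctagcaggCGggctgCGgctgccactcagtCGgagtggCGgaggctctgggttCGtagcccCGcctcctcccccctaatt
Vgll4: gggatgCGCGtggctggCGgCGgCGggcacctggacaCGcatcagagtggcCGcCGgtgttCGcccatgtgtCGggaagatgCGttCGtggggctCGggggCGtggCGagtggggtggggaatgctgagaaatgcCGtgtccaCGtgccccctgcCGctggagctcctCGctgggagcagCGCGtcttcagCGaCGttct

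Of the 1139 protein-coding genes with an iMK-only region at the promoter, 874 had a RefSeq window of 250 bases before to 50 after a start site, and 966 windows of 20150 lay on an iMK-only region. Their median GC content was 63.3%, close to the 63.0% of windows on regions called in all 4 libraries and above the 57.0% of all windows. The median ratio of observed to expected CpG was 0.711, between 0.855 at regions of all 4 libraries and 0.588 over all windows, and 24.7% of the iMK-only windows fell under 0.5 against 5.34% at regions of all 4 libraries. Letters were searched on both strands. GAGGAAGT was in 6.11% of iMK-only windows, 2.68% of windows at regions of all 4 libraries and 3.11% of all windows. CCGGAAGT, which shares its last 6 letters with GAGGAAGT, had the opposite order, at 2.80%, 12.8% and 5.35%. The letters AGATAA, which factors of the GATA1 family bind, were in 5.90% of iMK-only windows, 4.82% of windows at regions of all 4 libraries, 9.45% of all windows and 26.6% of the 64 windows at ERY-only regions. For TTNNGCAA the iMK-only share was 7.66% and the share of all windows 10.03%, for CACGTG 10.4% and 8.03%, for TGACGTCA 1.66% and 2.31%, for TGANTCA 4.45% and 7.00%, for TGTGGT 12.7% and 14.7%, and for TATAAA 7.25% and 12.1%. At regions of all 4 libraries the shares, in the same order, were 7.02%, 10.96%, 4.16%, 3.32%, 10.2% and 5.24%. Against those windows the direction was reversed for each of these motifs except TGACGTCA. These are counts of letters in fixed windows, given without a test.

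The iMK-only regions lay almost entirely at gene starts. Of the 1150, 1070 (93.0%) were within 1 kb of a protein-coding transcription start site (TSS) and 80 were not. Of those 80, 36 were at the start of another kind of gene and 44 at no annotated start. A single region covered 2 or 3 gene starts in 83 cases, as at Evi2, Evi2a and Evi2b. By comparison, 98.1% of regions called in all 4 libraries and 63.6% of the 217 ERY-only regions were at a protein-coding promoter. Chromosome X held 12 of the regions (1.04%, against 2.54% of all merged regions).

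The regions were narrow in iMK replicate 1 and wide in iMK replicate 2. The H3K4me3 length had a median of 1400 bp (400 to 9200) in replicate 1 and of 3000 bp (400 to 13800) in replicate 2, and 1109 of the 1150 were longer in replicate 2. The fold over control went the other way, with a median of 4.90 (1.46 to 57.3) in replicate 1 and 3.31 (1.46 to 9.30) in replicate 2, and it was higher in replicate 1 at 959 regions. The difference in length ran through nearly all regions, in the same direction as the difference in size between the lists. Around the TSS of the 1070 promoters, H3K4me3 reached its maximum 200 bp downstream, where 90.8% and 99.5% of promoters lay inside a called region in iMK replicates 1 and 2. At 1 kb upstream these shares were 12.1% and 58.6%, and at 1 kb downstream 44.6% and 84.4%, so the mark extended further into the gene than away from it in both libraries.

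**Figure D1:**
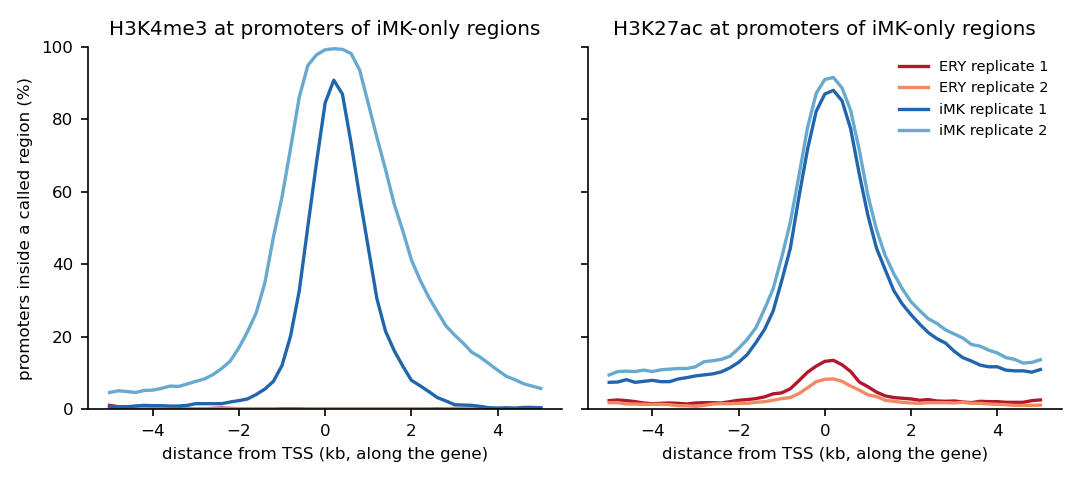
Share of the 1070 iMK-only promoters that lay inside a called H3K4me3 region (left) or H3K27ac region (right), in percent, against distance from the TSS in kb along the gene in steps of 200 bp. The lines are the 4 libraries of each mark. At the TSS the ERY lines for H3K4me3 lie at 0 by the choice of the regions, while H3K27ac at the TSS was called at 87.0% and 91.0% of the promoters in the iMK libraries and at 13.2% and 8.22% in the ERY libraries.

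**Figure D2:**
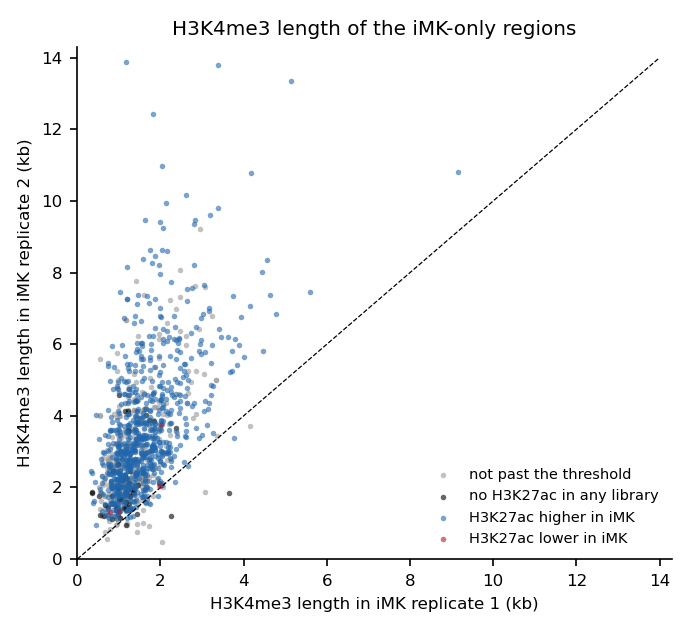
H3K4me3 length in iMK replicate 2 (vertical axis, kb) against replicate 1 (horizontal axis, kb) for the 1150 regions, each a point with a small random shift to separate ties. Colors give the H3K27ac call described in the text and the dashed line marks equal lengths, above which 1109 regions lie.

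The longest regions in the shorter of the iMK libraries were at Tnrc18, which spanned 9200 and 10800 bp of H3K4me3 in iMK replicates 1 and 2, at Zfp516 (5600 and 7400 bp), at the nested genes Evi2, Evi2a and Evi2b inside Nf1 (5200 and 13400 bp), at Smad7, an inhibitor of TGF-beta signaling (4800 and 6800 bp), and at the AP-1 subunit gene Fosl2 (4600 and 8400 bp). All 5 also passed the H3K27ac test described below, with coverage higher in iMK by 90.7 percentage points at Tnrc18, 95.9 at Zfp516, 83.6 at Evi2, Evi2a and Evi2b, 47.1 at Smad7 and 91.7 at Fosl2. At the edge of the rule, the weakest calls kept were near Zfp600, Rex2 and Zfp979 on chromosome 4, where the higher p-value of the iMK peaks was 0.00231, 0.00196 and 0.00177. The weakest ERY calls that excluded a region had p-values of 0.0017 near Gm21411, 0.00129 near Prl2c3 and 0.0012 at Flot2. Among the 1255 regions left out because of a single ERY library, the ERY peak had a median length of 1200 bp and a median fold of 5.14.

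H3K27ac was present on most iMK-only regions in iMK and on few in ERY. A peak touched 1047 of the 1150 regions (91.0%) in iMK replicate 1 and 1083 (94.2%) in replicate 2, against 188 (16.3%) and 124 (10.8%) in ERY replicates 1 and 2. Both iMK libraries and no ERY library had a peak at 832 regions, all 4 libraries at 106, and no library at 52. The mean share of a region covered by H3K27ac was 62.3% and 68.9% in the iMK libraries and 8.92% and 5.83% in the ERY libraries. At the 4576 regions with H3K4me3 in all 4 libraries the same means were 67.6% and 73.0% in iMK and 81.2% and 78.4% in ERY. The 2 iMK libraries lay above the ERY libraries on the mean over iMK-only regions and below them on the mean over shared regions. The ERY lists of H3K27ac covered more of the genome, and these means are not adjusted for that.

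Coverage was compared by limma's moderated test over all merged regions that had an H3K27ac peak in 1 or more libraries. Calls were made at a Benjamini-Hochberg adjusted p under 0.05. Of 12365 regions tested, 21.1% were higher in iMK and 13.4% were lower. Among the 1150 iMK-only regions, 753 (65.5%) were higher in iMK, 4 were lower, 341 did not pass and 52 had no H3K27ac to test. Both iMK values lay above both ERY values at 962 of the 1150 (83.7%), against 34.4% of all regions tested, and both ERY values above both iMK values at 9. The median difference over all 1150 was 63.3 percentage points. Other groups of regions differed in their counts: 234 of 1245 regions called in both iMK libraries and ERY replicate 1 were higher in iMK (18.8%), 157 of 4576 called in all 4 libraries (3.43%), while 172 of the 217 ERY-only regions were lower. Peak edges move in steps of 200 bp, so libraries can agree exactly, and 189 of the 753 called regions had equal coverage in the libraries of each cell type. At such regions the replicates show no spread of their own. Their SE and p-value come from the spread that limma pools over the regions tested. The count fell to 337 (29.3%, with 13.9% of all regions higher) without ERY H3K27ac replicate 1 and to 321 (27.9%, against 12.7%) without ERY replicate 2. It rose to 900 (78.3%, against 29.6% of all regions) and 862 (75%, against 27.2%) without iMK replicates 1 and 2. Each of these fits left 1 H3K27ac library in a cell type, so the replicate spread came from the other cell type alone. Median ERY coverage of the iMK-only regions was 0 in both ERY libraries. The counts thus rest on unlike errors and are given as a description. When the members were chosen anew without iMK H3K4me3 replicate 1, 2107 of 5522 (38.2%, against 21.1%) were higher. Without iMK H3K4me3 replicate 2 it was 828 of 1577 (52.5%, against 13.6%).

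**Figure D3:**
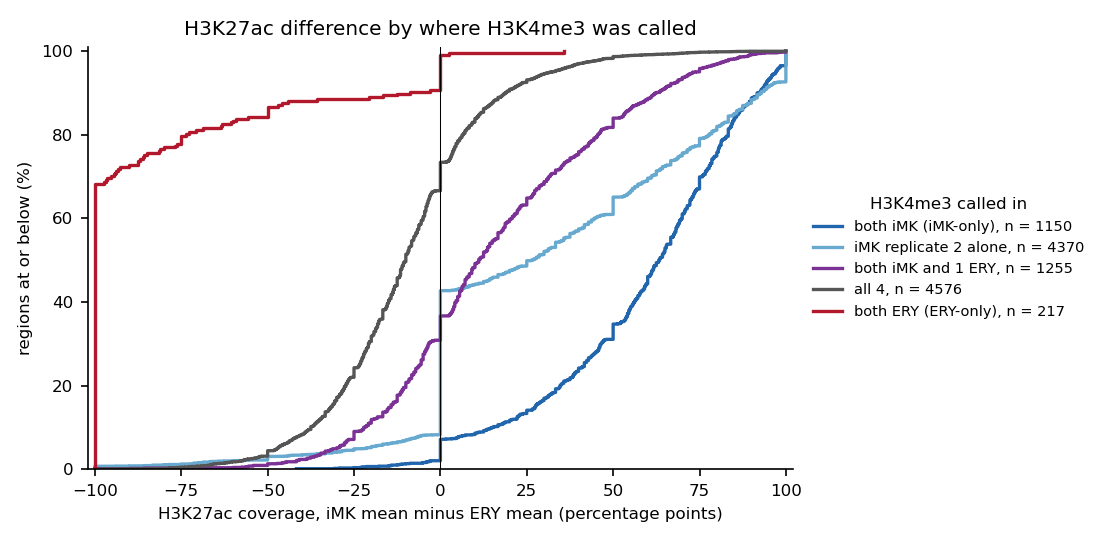
Cumulative share of regions (vertical axis, percent) against the H3K27ac coverage difference, iMK mean minus ERY mean, in percentage points of the region (horizontal axis). Each line is a set of merged regions by the libraries in which H3K4me3 was called. The iMK-only line has its median at 63.3 and the line of all 4 libraries at -10.

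H3K27ac beside the regions showed a smaller difference. Over the 10 kb on each side, the mean share covered was 7.94% and 10.4% in iMK and 2.70% and 2.01% in ERY. Of 11281 regions whose flanks could be tested, 13.4% were higher in iMK and 24.8% lower, a split of 1510 to 2799 that became 2042 to 2343 with quantile normalization. Among the 1150 iMK-only regions, the flanks of 295 (25.7%) were higher in iMK, those of 21 were lower, 488 did not pass and 346 had no H3K27ac in reach, and 236 were higher both on the region and beside it. Fam49b and Rassf4 were examples of both. Flank coverage at Fam49b was 0 in both ERY libraries and 46% and 47% in the iMK libraries (adjusted p = 0.00474, limma), and at Rassf4 it was 83% and 68% in iMK and 0 in ERY (adjusted p = 0.0108). At Itgb3 and Meis1 no library had H3K27ac in the flanks. The flank count was 99 and 93 without ERY H3K27ac replicates 1 and 2, and 550 and 484 without iMK replicates 1 and 2.

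The genes under the regions were read against 30 lists and gene families. Over all 21911 protein-coding symbols, 5.20% had an iMK-only region at the promoter, and for 753 of those 1139 genes a region was higher in iMK for H3K27ac. The lists were chosen with earlier results of these data known. Their shares describe the rule's own H3K4me3 calls and carry no test. The largest shares were among NADPH oxidase subunits (5 of 6 genes), SRC, SYK and TEC kinase signaling (20 of 41), RAS regulators (9 of 21), leukocyte integrins and adhesion (15 of 41), leukocyte transcription factors (27 of 79) and actin and megakaryocyte cytoskeleton genes (18 of 55). None of 40 red cell genes, 58 cytosolic ribosomal protein genes, 37 B and T lymphoid genes or 14 neuron, liver and muscle genes had such a region. The ribosomal promoters were instead called in all 4 libraries for 45 of 58 genes, and 29 of the 37 lymphoid promoters had no H3K4me3 call in any library. Of all 21911 protein-coding promoters, 5388 were called in all 4 libraries and 10157 in none.

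**Figure D4:**
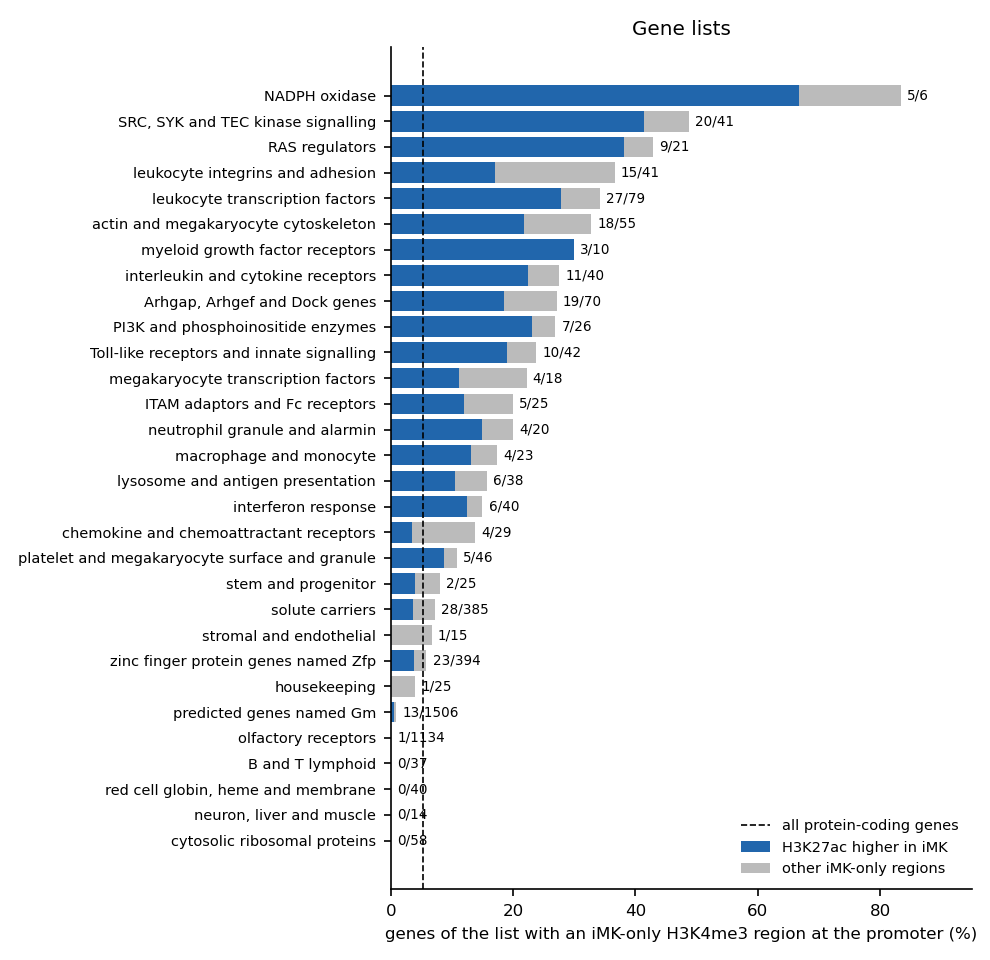
Share of each list's genes with an iMK-only H3K4me3 region at the promoter (horizontal axis, percent), with the count of genes beside each bar. The blue part of a bar is the genes whose region was higher in iMK for H3K27ac, the gray part the others, and the dashed line is the 5.20% of all protein-coding genes. NADPH oxidase leads with 5 of 6 genes, and 4 lists are at 0.

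Kinases and adaptors downstream of immune receptors made up 20 of the 1139 genes with an iMK-only region, from a list of 41. Of the 20 iMK-only genes of the SRC, SYK and TEC list, 17 had H3K27ac higher in iMK and 3 did not pass. At Ptk2b, which encodes the focal adhesion kinase relative PYK2, at Pik3ap1, an adaptor of PI3K, and at Card9, an adaptor below C-type lectin receptors, coverage was 0 in both ERY libraries and 100% in both iMK libraries (limma SE 0.27, adjusted p = 7.77e-06 for each). The replicates were equal here, so this SE and p-value reflect limma's pooled spread of other regions. For the SRC kinase gene Lyn the values were 0 and 0 in ERY and 92.6% and 92.6% in iMK (adjusted p = 7.77e-06), and for Vav1 0 and 0 in ERY and 84.2% and 84.2% in iMK (adjusted p = 8.52e-06). The Inpp5d region, whose promoter is printed above, had 0 and 0 in ERY and 66.7% and 95.8% in iMK (difference 81.3 points, SE 13.1, adjusted p = 0.0416). At these genes, named for their large differences or after their values were seen, both iMK values lay above both ERY values, as at 83.7% of all iMK-only regions. At Syk, named after its values were seen, 30.4% and 0 in ERY stood against 73.9% and 91.3% in iMK, which did not pass (adjusted p = 0.0796). Of the 7 iMK-only genes of PI3K and phosphoinositide enzymes, 6 were higher, among them Pik3cd, the leukocyte catalytic subunit, with 94.5% and 96.4% in iMK and none in ERY (adjusted p = 0.000112), and the regulatory subunit genes Pik3r5 and Pik3r6, neighbors on chromosome 11, with differences of 84.1 and 84.4 points. Among small GTPase regulators, 13 of 19 iMK-only genes of the Arhgap, Arhgef and Dock families were higher, with Arhgef4, Arhgap30 and Dock10 at 100, 100 and 97.7 points, and 8 of 9 RAS regulators, beside 66.1% of all genes with an iMK-only region, with Rassf4, Rassf5 and Rasa2 at 100, 93.3 and 86.4 points.

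Genes of phagocyte function made up a further group, read beside the 66.1% of all genes with an iMK-only region that were higher in iMK. Of the 5 iMK-only NADPH oxidase genes, whose products form the superoxide-producing complex of phagocytes, 4 were higher. Cyba had 91.9% and 94.6% of its region covered in iMK, and Ncf4 82.1% and 87.2%, each with 0 in both ERY libraries (adjusted p of 0.000281 and 0.0013). Rac2 was the exception, with full coverage in both ERY libraries and in iMK replicate 2 and 64.3% in iMK replicate 1 (adjusted p = 0.453). Of the neutrophil granule and alarmin genes, 4 of 20 were iMK-only and 3 higher: Lyz2, lysozyme, with 85.4% and 97.9% in iMK and none in ERY (adjusted p = 0.00691), S100a8, a calprotectin subunit, with 73.9% and 100% (adjusted p = 0.0296), and Hp, haptoglobin, with 82.8% and 62.1% (adjusted p = 0.0277). Of the macrophage and monocyte genes 4 of 23 were iMK-only and 3 higher, namely Csf1r, Mpeg1 and Ly6c2, with differences of 100, 89.5 and 65.4 points. Ccr2 had 0 and 71.1% in ERY and 55.3% and 73.7% in iMK (adjusted p = 0.539), and the cell types overlapped. Over the whole lists, neutrophil promoters called for H3K4me3 numbered 1 and 0 of 20 in ERY and 5 and 17 in iMK, and for H3K27ac 2 and 0 in ERY and 15 and 18 in iMK. Macrophage promoters called for H3K4me3 numbered 0 and 0 of 23 in ERY and 4 and 13 in iMK, with 10 called in no library, and for H3K27ac 2 and 3 in ERY and 15 and 18 in iMK. Of all 21911 protein-coding promoters, 8449 and 6315 were called for H3K4me3 in ERY and 7775 and 11569 in iMK, and 10157 in no library. For H3K27ac the numbers were 9126 and 8642 in ERY and 10430 and 10730 in iMK. These counts carry no test. Among markers of these cells, Adgre1 (F4/80) had H3K27ac in both iMK libraries and H3K4me3 in iMK replicate 2, and Elane had H3K4me3 in iMK replicate 2 and H3K27ac in iMK replicate 1. Mpo and Ly6g had H3K27ac in iMK replicate 2 alone and no H3K4me3. Itgam, which encodes the CD11b used to exclude cells from the sort, was iMK-only, with H3K27ac at 51.4% and 86.5% in iMK and 0 in ERY (adjusted p = 0.0764). A share of other marrow cells in the iMK sort and gene activity in megakaryocytes cannot be told apart in these bulk samples, and the part of either in the calls was not tested.

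Receptors for cytokines and microbial products followed, again beside 66.1% higher over all genes with an iMK-only region. All 3 iMK-only growth factor receptor genes were higher: Csf1r with 100% and 100% in iMK, Csf3r, the G-CSF receptor, with 76.2% and 100% (adjusted p = 0.025), and Csf2rb, the common beta chain, with 70.6% and 97.1% (adjusted p = 0.0329), each with 0 in both ERY libraries. The interleukin and cytokine receptor list had 11 iMK-only genes of 40. Of these, 9 were higher, led by Il10ra (97.4 points), the cytokine gene Il16 (97.2 points) and Tnfrsf1b, a TNF receptor (94.6 points). The Toll-like receptor and innate signaling list had 10 iMK-only genes of 42. Of these, 8 were higher, led by Tlr6 (97.2 points), the kinase gene Map3k8 (94.8 points) and Tlr2 (94.4 points). Pycard, the inflammasome adaptor, had 90% and 40% in ERY and 70% and 100% in iMK and did not pass (adjusted p = 0.593). Among 40 interferon response genes 6 were iMK-only and 5 higher, led by the factors Irf5 (90.4 points) and Irf8 (80.2 points) and by the GTPase gene Gbp5 (75 points). Among 25 ITAM adaptor and Fc receptor genes 5 were iMK-only and 3 higher: the inhibitory receptor Sirpa (98.4 points), the common gamma chain Fcer1g (80 points) and Clec5a (78.6 points). Among 29 chemokine and chemoattractant receptor genes 4 were iMK-only, and only Gpr65, a proton-sensing receptor, passed (94.4 points, adjusted p = 0.00525). Ltb4r1 had 15% and 95% in iMK and none in ERY, and Ccr1 had 41.7% and 75% in ERY and 100% in both iMK libraries (adjusted p of 0.367 and 0.16).

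Adhesion genes were split between those higher in iMK and those that did not pass. Of 15 iMK-only genes of the leukocyte integrin and adhesion list, 7 were higher and 8 did not pass, beside 66.1% higher over all iMK-only genes. Selplg, which encodes the P-selectin ligand, had 14.7% and 0 in ERY and 100% in both iMK libraries (adjusted p = 0.00913), and the tetraspanin gene Cd53 had 81.3% and 90.6% in iMK alone (adjusted p = 0.00452). At Ptprc, the leukocyte antigen CD45, ERY values of 40.9% and 50% stood under iMK values of 63.6% and 100% (adjusted p = 0.234). At Cd44, whose product was used to sort ERY, they were 75% and 50% in ERY and 91.7% and 94.4% in iMK (adjusted p = 0.169). At Itgb2 they were 34.8% and 0 in ERY and 73.9% and 100% in iMK (adjusted p = 0.114). These 3 regions, named after their values were seen, had H3K27ac in ERY where no ERY H3K4me3 was called.

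Leukocyte transcription factors made up 27 of the 1139 genes with an iMK-only region, from a list of 79. Of 27 iMK-only leukocyte transcription factor genes, 22 were higher for H3K27ac and 5 did not pass, beside 66.1% higher over all iMK-only genes. Klf2, a Krüppel-like factor of quiescent leukocytes, had 91.2% and 97.1% in iMK (adjusted p = 0.00139), Fosl2 had 90.5% and 92.9% (adjusted p = 0.000225), and the ETS factor gene Elk3 had 91.7% in both (adjusted p = 7.77e-06), each with 0 in ERY. Spi1, the myeloid and lymphoid master regulator PU.1, had 87.1% and 64.5% in iMK and none in ERY (75.8 points, SE 10.1, adjusted p = 0.0292). Cebpa, the granulocyte-monocyte factor, had 72.4% and 69.0% in iMK and none in ERY (adjusted p = 0.000856). Of 4 iMK-only megakaryocyte transcription factor genes, 2 were higher. Fli1, an ETS factor of megakaryocytes, had 58.8% and 70.6% in iMK (64.7 points, SE 5.28, adjusted p = 0.0117), and Mef2c had 76.2% and 61.9% (adjusted p = 0.0151), each with none in ERY. The homeobox gene Meis1, also on the stem and progenitor list, had 38.5% and 23.1% in iMK and none in ERY (adjusted p = 0.0783). Gata1, the erythroid and megakaryocytic factor, had H3K4me3 in ERY replicate 1 alone and H3K27ac in ERY alone, and Runx1 had both marks in all libraries, so neither was iMK-only. The stem cell list gave 2 of 25 genes, Meis1 and Hoxb4, and Hoxb4 was higher in iMK (86.1 points, adjusted p = 0.00149).

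Platelet genes were read next. Of 46 genes of the platelet and megakaryocyte surface and granule list, 5 were iMK-only (10.9%) and 22 had no H3K4me3 call in any library. Over all 21911 protein-coding genes, 5.20% were iMK-only and 10157 had no such call, a share close to that of the list. H3K27ac was called at 12 and 14 of the 46 promoters in ERY replicates 1 and 2 and at 19 and 23 in iMK replicates 1 and 2. Over all 21911 promoters it was called at 9126 and 8642 in ERY and at 10430 and 10730 in iMK. No test was made of these counts. Of the 5, 4 were higher: Plek, pleckstrin, with 89.2% and 100% in iMK (adjusted p = 0.00504), Itgb3 with 72.2% and 77.8% (75 points, SE 2.5, adjusted p = 0.00203), Rasgrp2, the exchange factor that activates RAP1 in platelets and whose start is shared with Pygm, with 67.9% and 82.1% (adjusted p = 0.0127), and F13a1, which encodes a subunit of coagulation factor XIII. The tetraspanin gene Cd9 had 35.3% and 82.4% in iMK and none in ERY and did not pass (adjusted p = 0.16). Of 18 iMK-only cytoskeleton genes 12 were higher (66.7%), close to the 66.1% of all genes with an iMK-only region. These were led by Sept9, a septin (100 points), Pstpip1, an actin regulator (97.5 points), and Vim, vimentin (86.7 points). Zyx, zyxin, and Flna, filamin A, named after their values were seen, were higher by 86.5 and 82.7 points (adjusted p of 0.00139 and 0.0455). Of 38 lysosome and antigen presentation genes 6 were iMK-only, and 4 of the 6 were higher (66.7%, also close to 66.1%). They were led by Hexa, a hexosaminidase subunit whose start lies in 1 region with Tmem202 (100 points), Laptm5 (98.2 points) and the cathepsin gene Ctsc (90 points).

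**Figure D5:**
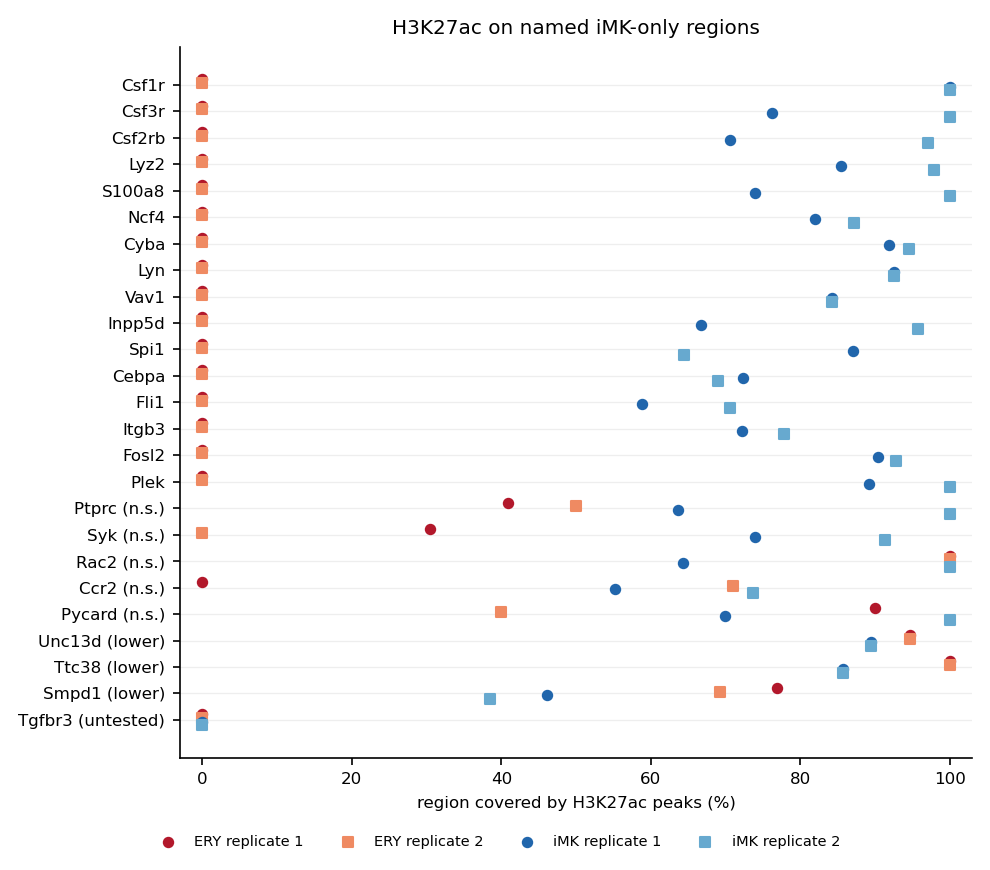
Share of each iMK-only region covered by H3K27ac peaks (horizontal axis, percent) in the 4 libraries, for regions named in the text. Circles are replicate 1 and squares replicate 2, and the note beside a gene gives the test where H3K27ac was not higher in iMK. From Csf1r to Plek both ERY values are at 0 and the lowest iMK value is the 58.8% of Fli1, while at Rac2, Ccr2 and Pycard the cell types overlap.

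The remaining lists are not lists of blood-specific genes, and their counts of higher genes stand beside 66.1% over all iMK-only genes. Solute carriers had an iMK-only region at 28 of 385 genes (7.27%), with 14 higher, led by the amino acid transporter gene Slc36a4 (100 points), the fatty acid transporter gene Slc27a4 (85.7 points) and Slc7a6 (80.8 points). Genes named Zfp had 23 of 394 (5.84%), with 15 higher, among them Zfp516 (95.9 points), Zfp608 (90.5 points) and Zfp36, the mRNA-destabilizing protein tristetraprolin (81.2 points). Of 25 housekeeping genes only Ldha was iMK-only, with 41.2% in both ERY libraries and 64.7% and 76.5% in iMK (adjusted p = 0.0505). Of 15 stromal and endothelial genes only Runx2 was, with 46.2% and 69.2% in iMK and none in ERY (adjusted p = 0.0505). Runx2 is also counted on the leukocyte transcription factor list. Predicted genes named Gm had 13 of 1506 and olfactory receptor genes 1 of 1134, Olfr56, which shares its region with 9930111J21Rik1 and was higher by 92.9 points. Of the 13, 9 were higher, and Gm10840, Gm17509 and Gm10645 lie in 1 region each with Limd2, Emb and Tbc1d9.

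The largest differences were tied. At 40 regions both iMK libraries were covered in full and both ERY libraries had no peak, and the widest 10 of these included Ptpre, a tyrosine phosphatase (chr7:135649001-135656200), Rassf4 (chr6:116668601-116675000), Adgre5, the adhesion receptor CD97 (chr8:83736601-83743000), Sept9 (chr11:117330401-117335800), St8sia4, a polysialyltransferase (chr1:95663801-95669000), Tgfbi, a secreted matrix protein (chr13:56609201-56614200), and Fam49b (chr15:64056401-64061200). A further 2 of the widest 10 were off any protein-coding promoter and are given below. Ordering the ties by width was chosen after the values were seen. Coordinates are in mm10, counted from 1.

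In the opposite direction, 4 iMK-only regions had H3K27ac higher in ERY. At Unc13d, the granule priming factor Munc13-4, coverage was 94.7% in both ERY libraries and 89.5% in both iMK libraries (-5.26 points, SE 0.30, adjusted p = 0.00612), and this difference became 4.05 points with quantile normalization. At Ttc38 and Tmem218, ERY libraries were covered in full and iMK libraries to 85.7% (-14.3 points, adjusted p = 0.000645 each). At Smpd1, acid sphingomyelinase, values were 76.9% and 69.2% in ERY and 46.2% and 38.5% in iMK (-30.8 points, SE 4.89, adjusted p = 0.0408). The first 3 of these differences correspond to a single step of 200 bp with equal replicates.

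H3K4me3 without H3K27ac was found at 52 iMK-only regions, 45 of them at a protein-coding promoter. Among these promoters, those with a high fold in the weaker iMK library included Cystm1 (5.04 and 4.65 in replicates 1 and 2), Trim62 (4.94 and 4.65), Lca5l (4.99 and 4.59) and Tgfbr3, a TGF-beta coreceptor (10.02 and 4.33). These folds lay above the iMK-only medians of 4.90 and 3.31, as the way of choosing them implies. Other promoters of this kind, named after their values were seen, were those of the Notch target gene Hey1, Epha7 and the cell cycle inhibitor gene Cdkn2a, with H3K4me3 folds of 5.73, 4.90 and 4.29 in iMK replicate 1.

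H3K27ac peaks of ERY were more frequent at CpG-poor regions. Of 789 iMK-only regions with a RefSeq promoter window, 173 had a CpG ratio under 0.5 in every window, and an ERY H3K27ac peak touched 25.4% and 21.4% of these in replicates 1 and 2, against 13.6% and 7.63% of the other 616. In iMK the shares were 96.5% and 98.3%, against 89.8% and 94.2%. The CpG-poor regions were wider, with a median of 4000 bp against 2800 bp, and 112 of them (64.7%) were higher in iMK, against 414 (67.2%) of the rest. Of 54 regions with GAGGAAGT in a window, 40 were higher in iMK (74.1%), against 486 of 735 (66.1%). Regions of the same libraries are not replicates, and these shares carry no test.

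Of the 80 regions off protein-coding promoters, 40 (50%) were higher in iMK, beside 713 (66.6%) of the 1070 at promoters. The largest differences were at the start of the noncoding gene Gm26740 (chr10:22300801-22303600), at Gm37352 (chr8:84199801-84205200), at an unannotated site 20386 bp from the nearest protein-coding start, that of Azin1 (chr15:38468201-38474000), and at Gm26660 (chr14:25377801-25379400), all with 100% in both iMK libraries and 0 in both ERY libraries (adjusted p = 7.77e-06). The next was at chr16:16568601-16572000, 8382 bp from the start of Fgd4, with 94.1% and 100% in iMK (adjusted p = 0.00129). The immunoglobulin heavy chain locus held a region over Ighm and the Ighj segments (chr12:113422401-113430600), where H3K27ac covered 14.6% and 0 in ERY and 92.7% and 75.6% in iMK (adjusted p = 0.0281). It was singled out after its values were seen.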

How the data were processed

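ChIP-seq peak lists of H3K4me3 and H3K27ac were analyzed from 4 ERY and 4 iMK libraries of a series of 18 samples. The 10 input libraries were not used here. Groups came from the submitters' labels, and replicate numbers follow the order of submission and pair nothing. Reads were aligned and peaks called by the authors, separately for every library: Bowtie 1.0.0, SICER 1.1 and build mm10 appear in the processing notes, MACS in the study's general methods. Every peak starts and ends on a 200 bp grid, as in windowed calling. The deposited values of a peak are its fold (a ratio, ChIP over control), p-value and q-value, and served here to describe or rank peaks only. Longer peaks can join several elements, and list size depends on depth, which the lists do not give, so no counting interval is given.

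Merged H3K4me3 regions, the percent of each covered by H3K27ac peaks, and the percent of the 10 kb on each side were computed in Python 3.11.15 (numpy 2.4.6, pandas 2.3.3). Promoters were 1 kb on each side of any TSS of GENCODE vM21. Differences (iMK minus ERY, in percentage points) were tested with limma 3.58.1 in R 4.3.3, with a trend and no covariates, and limma's standard error (SE) is given. An exact permutation test of 2 against 2 cannot give a two-sided p under 0.333 and was not used. On simulated coverage of 12365 regions for the test on the regions themselves, 65 of 100 differences of 60 points and 46 of 100 of 20 points were recovered, with 8 false calls. The simulated noise was normal with a capped spread, was not held within the possible range of coverage and had no 200 bp steps. Replicates of real regions could lie further apart, so these counts do not give the error rates of the test on the real coverage.

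The regions and gene lists were chosen with earlier results of these data known. Of 758 listed genes 756 were found in the annotation (not Clec7a or Mx2). Named were, per list, up to 3 genes by H3K27ac difference, called ones first; the 10 largest differences; those higher in ERY; 5 promoters without H3K27ac by fold; the 5 longest; the 5 largest off promoters; and Itga2b, Itgb3, Pf4, Spi1, Gata1, Fli1 and Runx1. Some genes that this rule names are not reported here. Others are marked as chosen after their values were seen, as are Rac2, Ccr2, Pycard, Itgam, Ptprc, Cd44, Itgb2, Cd9, Lyn, Vav1, Inpp5d and Cebpa. Alternatives changed the filter, scale, normalization, peak number, joining distance, windows, chromosome X, trend and each library. Those that leave out an H3K4me3 library and choose the regions anew were added after the data were seen.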

Additional observations from a re-analysis of the deposited data

How the results depend on the processing

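No paired analysis was possible because the labels number no replicates. Of the iMK-only regions, between 321 and 900 were higher and between 5 and 10 lower in iMK when an H3K27ac library was left out, and between 756 and 2107 were higher and between 2 and 86 lower when an H3K4me3 library was left out and the regions were chosen anew. The number of regions then ran from 1160 to 5522. Under the other alternatives the higher count stayed between 599 (quantile normalization) and 812 (arcsine scale). The lower count was 2 with quantile normalization and 1 in a 2 kb window. For the flanks, the higher count ran from 93 to 550 and the lower count from 10 to 47 without an H3K27ac library, and from 296 to 1080 and from 10 to 305 without an H3K4me3 library. The lower flank count was 13 with no filter and 8 over 5 kb, and over 50 kb the flanks gave 470 higher and 94 lower. Asking H3K27ac to cover at least 0.5 of a region took its mean share of regions from 92.6% to 79.1% in iMK and from 13.6% to 6.96% in ERY. The number of regions was 944 with equal numbers of H3K4me3 peaks, 775 with a fold of at least 3 and 947 when a call had to cover 0.5 of the region. With a promoter window of 2.5 kb, 1166 genes had a region. Unc13d went to 4.05 points with quantile normalization, and with an H3K27ac library left out Pycard ran from -5 to 45 and Ccr2 from -6.58 to 64.5 points. Of 112 named regions tested, 36 and 37 that had passed the test no longer passed it without ERY H3K27ac replicates 1 and 2, and 8 each without iMK replicates 1 and 2. Fits without an H3K27ac library took their replicate spread from the other cell type alone. The cause of these shifts was not tested in any case. Depth is unknown, so regions without a peak may hold signal under the threshold.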

Other observations

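Some iMK-only regions lay close together, with 74 neighboring pairs less than 50 kb apart on the same chromosome. Vgll4 held 2 of the regions. At its promoter printed above (chr6:114968201-114972000) H3K4me3 spanned 1200 and 3600 bp in iMK replicates 1 and 2 and no library had H3K27ac. At the other start of the gene (chr6:114873201-114876000) H3K27ac covered 71.4% and 64.3% in ERY and 92.9% and 100% in iMK, a difference of 28.6 points that passed limma's test (SE 4.6, adjusted p = 0.0417). The starts of this gene thus differed in whether H3K27ac was called.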
